A study of Mus musculus with 9 samples.

Results

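Feedback regulators of the ERK branch of MAP kinase signaling were followed in cultured mouse retina with and without 2-deoxy-D-glucose (2-DG), a glucose analog that cells take up but cannot metabolize and that inhibits glycolysis. The set held 10 genes picked by symbol: the dual-specificity phosphatase genes Dusp1, Dusp4, Dusp5, Dusp6 and Dusp10, the Sprouty and Spred genes Spry2, Spry4 and Spred1, and the immediate early response genes Ier2 and Ier3. These were 10 of 55487 genes in the count table, and all 10 were among the 21049 genes with enough counts to be tested. RNA-seq was performed on 9 libraries, 5 of control explants and 4 of explants with 2-DG. Retinas came from C57BL/6J animals without a transgene or mutation, aged 28 days (P28), and after removal of sclera and retinal pigment epithelium they were kept for 48 h in Neurobasal-A with B27 and N2 supplements and 5 mM glucose. The 2-DG group additionally had 20 mM 2-DG. Before RNA was taken, both groups were washed and spent another 1 h in Krebs' Ringer medium. The labels call the libraries biological replicates without saying whether each is a separate animal, so the spread reported here is that between libraries.

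ERK is the last kinase of the RAS-RAF-MEK cascade, which growth factor receptors and calcium entry switch on. Active ERK drives transcription of immediate early genes and, with a short delay, of its own brakes: phosphatases of the DUSP family remove phosphate from ERK and its relatives JNK and p38, while Sprouty and Spred proteins act between the receptors and RAF. Because these transcripts are short-lived and induced by the pathway, their levels are widely used as an RNA readout of its recent activity. In the retina ERK is best known for its phosphorylation in Müller glia after injury and growth factor exposure. Phosphorylated ERK itself was not measured in these libraries.

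RefSeq promoter windows, from 250 bases before to 50 bases after the gene start on GRCm38.p6, were found for 7 of the 10 genes (Dusp1, Dusp5, Dusp6, Dusp10, Spry2, Spred1 and Ier3). They were searched on both strands for the cAMP response element TGACGTCA and its core TGACG, which the longer element contains on both strands, for the CArG box bound by serum response factor, for the AP-1 site TGANTCA, for the ETS site CCGGAAG and for the E-box CACGTG. The windows of Dusp1 and Dusp5 are shown because they were the 2 with any match. Capitals mark the matches, and both stretches lie upstream of the start and read 5′ to 3′ on the strand of the gene.
Dusp1, chr17:26508581-26508675, minus strand: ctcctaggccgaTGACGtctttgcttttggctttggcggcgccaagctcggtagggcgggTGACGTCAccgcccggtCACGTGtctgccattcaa
Dusp5, chr19:53529051-53529106, plus strand: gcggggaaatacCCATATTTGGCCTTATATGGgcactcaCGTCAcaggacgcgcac

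In the Dusp1 stretch the capitals are, in order, a core TGACG beginning at position -191 from the start, a full cAMP response element at -143 and an E-box at -126. In the Dusp5 stretch a pair of CArG boxes begins at -82 and -72, back to back, and a core element on the other strand begins at -55. Among 32851 RefSeq promoter windows of the same length, 1.79% held the full cAMP response element, 20.8% the core, 1.63% a CArG box, 7.15% the E-box, 7.81% the AP-1 site and 8.86% the ETS site. These are matches of letters, and binding was not examined.

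Totals ranged from 11318087 to 51802230 estimated counts per library, and every one of the 10 genes had at least 203 counts in every library, so counting error was small beside the spread between libraries. That spread was wide: the biological coefficient of variation over all genes was 51.5%. Across the whole transcriptome 0 genes passed an adjusted p of 0.05 in edgeR's quasi-likelihood test, with 1526 genes at an unadjusted p under 0.05, 284 genes past the threshold in DESeq2 and 0 in limma-voom. Several libraries stood apart in ways that touch the genes below. Control replicate 2 had rod photoreceptor markers summing to 16550 CPM (counts scaled to a common library size after TMM normalization), against 1715 to 6304 CPM in the other control libraries. The 2-DG replicate 4 had endothelial and pericyte markers summing to 2458 CPM, against 398 to 842 CPM in the other 2-DG libraries, and 13.6% of counts from mitochondrial genes, against 3.40% to 6.05% in the other 2-DG libraries. The mitochondrial percent was also high in control replicates 2 and 5, at 10.7% and 9.97%, against 3.63% to 6.68% in the other controls. In control replicate 5 the endothelial sum was 1896 CPM, and it had the lowest median correlation with the other libraries (0.889, against 0.891 for control replicate 2 and 0.908 for 2-DG replicate 4). In 2-DG replicate 3, the lowest 2-DG library for 5 of the 10 genes, cone markers summed to 634 CPM, against 40.6 to 86.1 CPM in the other 2-DG libraries. The fits of the 10 genes are therefore given with and without control replicates 2 and 5 and 2-DG replicates 3 and 4, and the part of these library differences in them was not tested.

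All 10 genes had a lower fitted level in the 2-DG group. The log2 fold changes ran from -1.11 for Spry2 to -0.27 for Dusp6 with a median of -0.70, while the median over all 21049 genes was -0.01 and 50.8% of all genes were fitted lower. None of the 10 passed the threshold over all genes (0 of 10, where 0% of genes passed), and their adjusted p-values ran from 0.664 to 0.900. Only Spry2 was lower at an unadjusted p under 0.05, against 4.83% of all genes. No member had every 2-DG library below every control library, a pattern shown by 1.41% of genes. For 7 of the 10, the 2-DG libraries lay below the control mean in 4 of 4 cases, against 19.4% of genes. Control and 2-DG levels therefore overlapped for each of these genes when all 9 libraries were counted, and no difference passed the test over all genes. In bulk tissue, fewer cells of a type and less RNA per cell cannot be told apart.

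**Figure D1:**
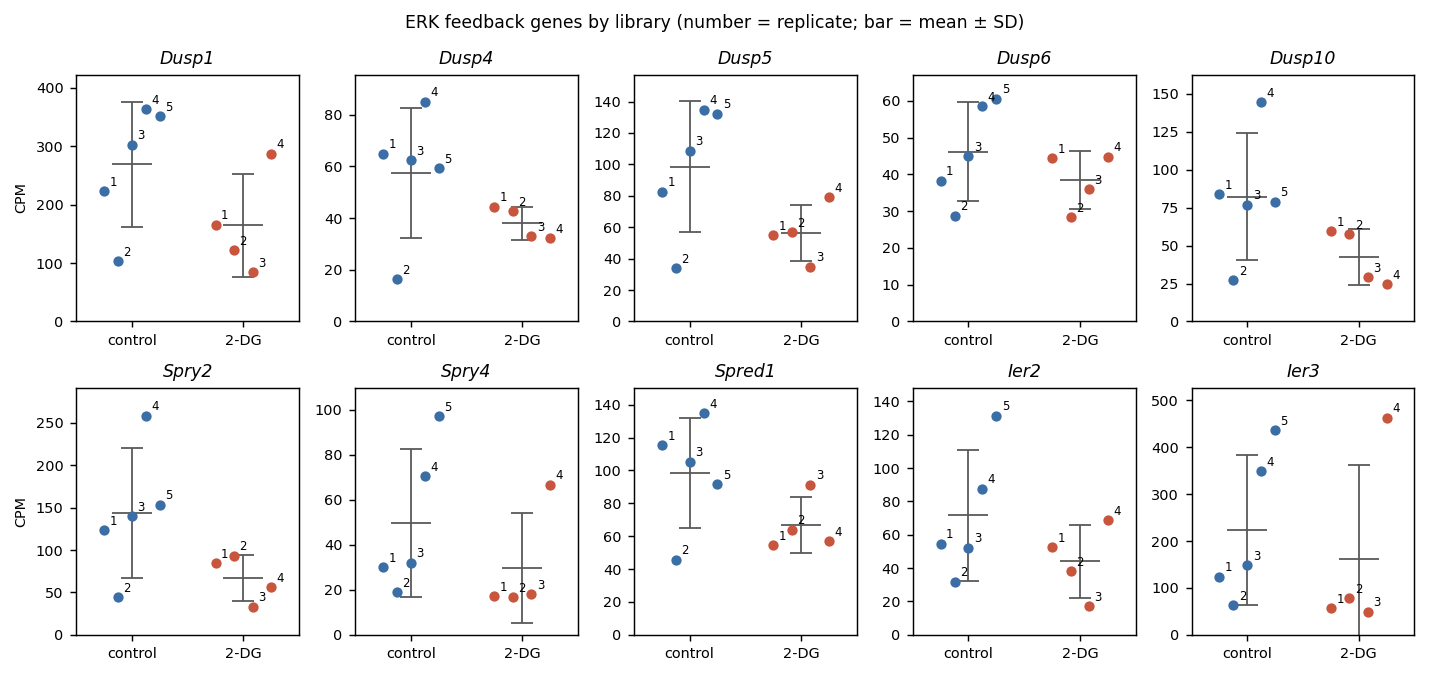
CPM of each of the 10 genes (y axis, linear from 0) in the 5 control (blue) and 4 2-DG (red) libraries. Points are single libraries with their replicate number, and grey bars give the group mean ± SD, clipped at 0 for Ier3. Control replicate 2 is the lowest control point in all 10 panels, and 2-DG replicate 4 is the highest 2-DG point in 6 of them.

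Among the phosphatases, Dusp1 encodes a nuclear enzyme that acts on ERK, JNK and p38. In control replicates 1 to 5 Dusp1 stood at 223, 103.5, 303, 364 and 351 CPM, and in 2-DG replicates 1 to 4 at 166, 122, 84.1 and 287.5 CPM. Thus 3 of the 2-DG libraries lay below every control library except replicate 2, and the fourth fell among the controls. The log2 fold change was -0.71 ± 0.43 (SE), with an adjusted p of 0.767 in edgeR.

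Dusp4 and Dusp5 encode nuclear phosphatases, and that of Dusp5 is specific for ERK. Dusp4 measured 64.9, 16.4, 62.4, 85.0 and 59.3 CPM in the controls and 44.4, 42.7, 32.9 and 32.2 CPM with 2-DG. For Dusp5 the control values were 82.7, 34.0, 109, 135 and 132 CPM, and those with 2-DG were 55.0, 56.7, 34.8 and 78.9 CPM. In both genes the 2-DG libraries lay under controls 1, 3, 4 and 5, and control replicate 2 lay below all of them. The log2 fold changes were -0.60 ± 0.38 (SE) for Dusp4 and -0.81 ± 0.39 (SE) for Dusp5, with adjusted p-values of 0.774 and 0.709.

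Dusp6, the cytoplasmic ERK phosphatase often taken as the standard reporter of ERK output, had the smallest difference of the set with all 9 libraries, and its log2 fold change ran from -0.40 to -0.14 on leaving out single libraries. Ier3 was nearer to 0 than Dusp6 without control replicate 5 and without 2-DG replicate 1 or 3. The levels of Dusp6 were 38.3, 28.7, 44.9, 58.6 and 60.6 CPM in the controls and 44.4, 28.4, 35.9 and 44.8 CPM with 2-DG, so that 2 of the 2-DG libraries lay above control replicate 1. The log2 fold change was -0.27 ± 0.26 (SE), with an adjusted p of 0.838. Dusp10, whose product prefers JNK and p38 to ERK, had 83.9, 27.4, 77.0, 145 and 78.9 CPM in the controls and 59.4, 57.7, 29.2 and 24.5 CPM with 2-DG. Every 2-DG value was thus below the lowest of the other 4 controls, and control replicate 2 lay between 2-DG replicates 3 and 4. Its log2 fold change was -0.95 ± 0.44 (SE), with an adjusted p of 0.694.

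Spry2 encodes a Sprouty protein that restrains receptor tyrosine kinase signaling upstream of ERK, and it had the largest fitted difference. Control values were 123, 44.5, 140, 259 and 154 CPM, and 2-DG values were 84.3, 93.2, 33.2 and 56.2 CPM. Apart from control replicate 2, the lowest control was 123 CPM and the highest 2-DG library 93.2 CPM. The log2 fold change was -1.11 ± 0.46 (SE), with an unadjusted p of 0.0357 and an adjusted p of 0.664 in edgeR.

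Its relative Spry4 behaved differently within the 2-DG group. The control values of Spry4 were 30.2, 19.0, 32.1, 70.5 and 97.0 CPM, while 2-DG replicates 1 to 3 were close together at 17.2, 16.7 and 18.1 CPM and replicate 4 stood at 66.6 CPM. The first 3 of the 2-DG libraries were below all 5 controls, and the fourth was above 3 of them. With all libraries the log2 fold change was -0.75 ± 0.58 (SE), with an adjusted p of 0.805.

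Spred1, whose product brings neurofibromin to the membrane to switch off RAS, measured 115, 45.7, 105, 135 and 91.6 CPM in the controls and 54.6, 63.8, 91.4 and 57.0 CPM with 2-DG. Here the 2-DG library nearest the controls was replicate 3, which differed from control replicate 5 by less than the spread of either group. The log2 fold change was -0.56 ± 0.31 (SE), with an adjusted p of 0.740.

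Ier2 encodes a nuclear protein and Ier3 a small stress-inducible protein that ERK phosphorylates, and both are immediate early genes. Ier2 stood at 54.7, 31.7, 52.2, 87.6 and 131 CPM in the controls and at 52.5, 38.2, 17.0 and 68.6 CPM with 2-DG. 3 of its 2-DG libraries lay within the control range and 1 below it, and the log2 fold change was -0.70 ± 0.47 (SE), with an adjusted p of 0.779. Ier3 was the most variable of the 10. It measured 124, 62.8, 149, 349 and 436.5 CPM in the controls, and 56.8, 77.8, 49.6 and 463 CPM with 2-DG. Its 2-DG replicate 4 was the highest of all 9 libraries, while the other 3 lay below every control but replicate 2. The log2 fold change of Ier3 was -0.47 ± 0.76 (SE), with an adjusted p of 0.900.

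Levels between the genes were compared as CPM per kilobase of exon, since longer transcripts collect more reads. The length covers all annotated exons of a gene, 3311 bases for Dusp1, whose main transcript Dusp1-206 has 1587 bases. The value of Dusp1 is therefore low beside that of genes with a single transcript such as Spry2. In the controls Ier3 was highest at 198 ± 141.5 CPM per kb (SD, n = 5), followed by Dusp1 at 81.2, Spry2 at 69.0, Ier2 at 47.0, Dusp5 at 39.8, Dusp10 at 27.1, Dusp4 at 21.0, Dusp6 at 14.75 and Spred1 at 14.5. Spry4 was lowest at 10.5 ± 6.90 CPM per kb. With 2-DG the order of the 10 genes was the same, from 143 CPM per kb for Ier3 to 6.24 for Spry4. The mean ± 1 SD of neighbours in this order overlapped in 9 of 9 pairs in either group.

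Control replicate 2 was the lowest control library for 10 of 10 genes, and the lowest of all 9 libraries for 3 of them. When it was left out, the fitted differences of the 10 genes were larger, with a median log2 fold change of -0.90. For Dusp4, Dusp5, Dusp10, Spry2 and Spred1, every 2-DG library was then below every remaining control (5 of 10, against 4.47% of all genes). At an unadjusted p under 0.05, 6 genes were lower (those 5 and Dusp1), against 6.07% of the 20632 genes tested without that library. Since it was the lowest control for all 10 genes, leaving it out could only raise their control levels, and the shares over all genes carry no such condition, so that nothing is read from these contrasts. The log2 fold changes became -0.84 ± 0.19 (SE) for Dusp4, -1.03 ± 0.27 for Dusp5, -1.18 ± 0.35 for Dusp10, -1.34 ± 0.36 for Spry2 and -0.75 ± 0.22 for Spred1. None of the 10 passed the threshold over all genes, the smallest adjusted p being 0.138 for Dusp4.

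The 2-DG replicate 4 was the highest 2-DG library for 6 of the 10 genes (Dusp1, Dusp5, Dusp6, Spry4, Ier2 and Ier3) and among the lower 2-DG libraries for Dusp4, Dusp10, Spry2 and Spred1. Without it the log2 fold change of Ier3 was -1.87 ± 0.60 (SE), that of Spry4 -1.52 ± 0.51 and that of Dusp1 -1.12 ± 0.42. In that fit 4 genes (Dusp1, Dusp5, Spry4 and Ier3) were lower at an unadjusted p under 0.05, against 9.49% of the 21142 genes tested, and the smallest adjusted p among the 10 was 0.307. For these 4 genes it was the highest 2-DG library, so its removal could only widen their differences. Dusp10 and Dusp4 moved the other way, to -0.76 ± 0.46 and -0.53 ± 0.43.

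Leaving out control replicate 5 made the differences of several genes smaller, with a median log2 fold change of -0.60. Ier3 was then at -0.09 ± 0.77 (SE), Spry4 at -0.36 ± 0.55 and Ier2 at -0.37 ± 0.43, while Spry2 and Dusp10 stayed at -1.10 ± 0.50 and -0.98 ± 0.48. Without 2-DG replicate 3 the median was -0.55, with Ier3 at -0.17 ± 0.80, Ier2 at -0.43 ± 0.44, Dusp1 at -0.49 ± 0.44 and Spry2 at -0.88 ± 0.48, and only Spred1, at -0.75 ± 0.33, was at an unadjusted p under 0.05. None of the 10 reached that level when control replicate 3, 4 or 5 was left out.

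**Figure D2:**
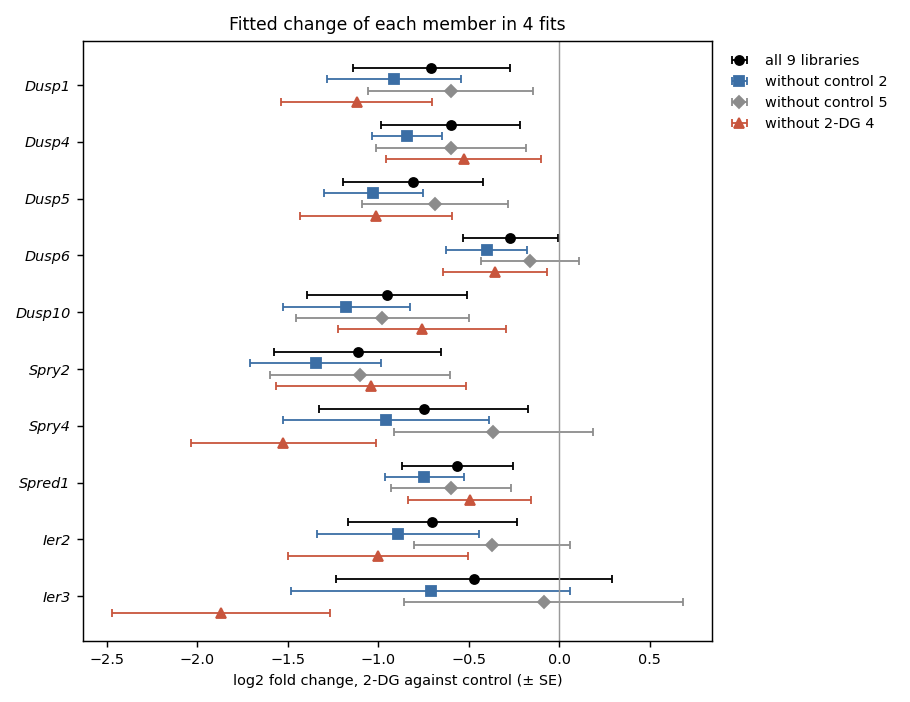
Fitted log2 fold change of 2-DG against control (x axis) ± SE for each of the 10 genes (y axis), with all 9 libraries (black circles), without control replicate 2 (blue squares), without control replicate 5 (grey diamonds) and without 2-DG replicate 4 (red triangles). Every point lies below 0, and Ier3 runs from -0.09 without control replicate 5 to -1.87 without 2-DG replicate 4.

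Of the fits that kept all 9 libraries, 2 called members. With 2 surrogate variables, which are estimated from the same expression values, 5 genes passed the threshold (Dusp5, Dusp4, Spry2, Dusp10 and Dusp1, with adjusted p-values from 0.00841 to 0.0492), against 2.43% of all genes called lower. With limma-voom and library quality weights 4 genes passed (Spred1, Dusp5, Dusp1 and Spry4, adjusted p-values from 0.0351 to 0.0453), against 4.27% of all genes. Dusp1 and Dusp5 were the genes called in both fits. Dusp6 was called in neither, with log2 fold changes of -0.30 and -0.48. In the other fits with all 9 libraries, none of the 10 genes passed.

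Averaged over the 10 standardised log2 levels, controls 4 and 5 were highest (1.26 and 1.05 SD units above the mean of the 9 libraries), controls 3 and 1 followed at 0.46 and 0.30, and control replicate 2 stood at -1.22. In the 2-DG group, replicate 4 stood at 0.04, replicates 1 and 2 at -0.34 and -0.54, and replicate 3 at -1.01. On this average the groups overlapped through control replicate 2 alone, and the other 4 controls lay above all 4 of the 2-DG libraries. Control replicate 2 was the lowest control for each of the 10 genes. Setting it aside favours such a gap, and nothing is read from it. The average hides a split within 2-DG replicate 4, where Ier3, Spry4 and Dusp1 were above their mean over the 9 libraries and Dusp10, Spry2 and Spred1 below it.

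**Figure D3:**
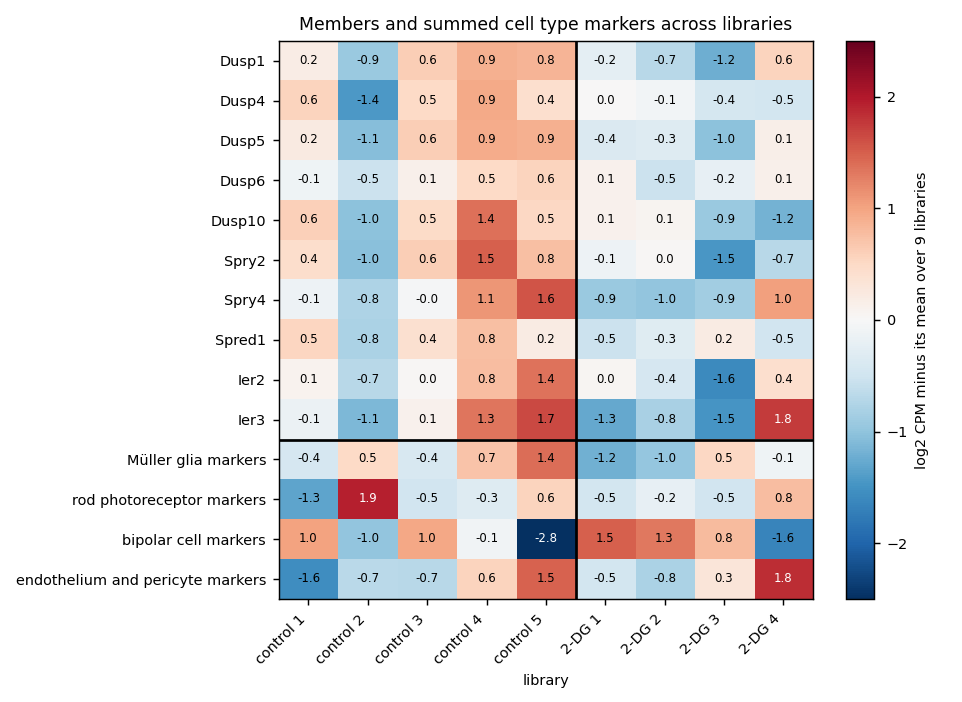
Log2 CPM minus its mean over the 9 libraries (colour and printed number) for the 10 genes and for the summed markers of 4 cell types (rows) in each library (columns, controls left of the vertical line). Control replicate 2 is negative for all 10 genes and at 1.95 for rod markers, and 2-DG replicate 4 is positive for Ier3 (1.75), Spry4 (1.02) and endothelial and pericyte markers (1.84).

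Retinal identity and the cell mixture were read from 12 marker lists. Every marker of the rod, cone, bipolar and Müller glia lists was expressed highly enough to be tested. Summed levels overlapped between the groups for each of the 12 lists. Müller glia markers (8 of 8 tested, 3 lower and 1 higher at an unadjusted p under 0.05, where 4.83% and 2.42% of all genes were) summed to 2055 to 7241 CPM in the controls and 1200 to 3924 CPM with 2-DG, much of it from Glul. The lower ones were Sox9, Glul and Slc1a3 and the higher one Vim. Sox9, a transcription factor of these glia, stood at 112, 20.9, 115, 195.5 and 194 CPM in the controls and at 25.2, 37.2, 14.0 and 34.3 CPM with 2-DG. Its 2-DG libraries lay below every control but replicate 2, and those of 4.47% of all genes lay below these 4 controls. Sox9 was the lowest of its list and is described after its values were seen. Of the 8 markers 5 were fitted lower, while Vim (0.67), Apoe (0.23) and Aqp4 (0.19) were fitted higher. The log2 fold change of Sox9 was -2.20, with an adjusted p of 0.524 in edgeR. Rod markers (5 of 5 tested) summed to 1715 to 16550 and 3107 to 7308 CPM, and cone markers (5 of 5) to 37.9 to 511 and 40.6 to 634 CPM. Bipolar markers (6 of 6) summed to 115 to 1657 CPM in the controls, lowest in replicate 5, and to 262 to 2301 CPM with 2-DG, lowest in replicate 4. Amacrine and horizontal, ganglion cell, microglial and astrocyte sums were 95.4 to 619, 216 to 1498, 26.4 to 71.9 and 40.1 to 183 CPM over the 9 libraries. Pigment epithelium markers reached 87.1 CPM in 2-DG replicate 3 and at most 19.9 CPM elsewhere. Muscle markers stayed at or under 16.4 CPM, with Myh4 and Tnnt3 under 1 CPM throughout, and lens markers at or under 16.7 CPM, with Lim2 at 0. Beyond the Müller glia list, Aldh1l1 of the astrocyte list was lower and Ttr of the pigment epithelium list higher at an unadjusted p under 0.05, at log2 fold changes of -0.72 and 3.21. Rod (5 of 5) and ganglion cell (7 of 7) markers were fitted lower and bipolar markers higher (0 of 6 lower), without any of them at that level.

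Endothelial and pericyte markers (6 of 6 tested, none at an unadjusted p under 0.05) were summed for each library. The sums were 234, 428, 426, 1002 and 1896 CPM in control replicates 1 to 5 and 504, 398, 842 and 2458 CPM in 2-DG replicates 1 to 4. The same 3 libraries, controls 4 and 5 and 2-DG replicate 4, were the highest for the endothelial sum, for Ier2, for Ier3 and for Spry4, and also for the much lower muscle marker sum (8.91, 16.4 and 8.89 CPM). For Dusp4, Dusp10, Spry2 and Spred1 the 2-DG replicate 4 was not high, at 32.2, 24.5, 56.2 and 57.0 CPM. The part of vessel cells, of Müller glia, and of rod RNA in control replicate 2, in the levels of the 10 genes was not tested.

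Annotated transcripts gave a finer view of the same genes. Of 20 transcripts of the 10 genes, 18 had enough counts to be tested, and 18 of 18 were fitted lower with 2-DG. At an unadjusted p under 0.05, 4 were lower (Dusp1-203, Dusp1-204, Dusp10-201 and Spry2-201), against 2.28% of 62900 transcripts, and 0 passed the threshold, as did 0 of all transcripts. Spry2-201 and Dusp10-201, the main coding transcripts of their genes, had log2 fold changes of -1.18 ± 0.47 (SE) and -1.05 ± 0.44.

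Only the retained-intron transcripts of Dusp1 had every 2-DG library below every control library, control replicate 2 and 2-DG replicate 4 included (2 of 18, against 0.916% of all transcripts). They were singled out after their values had been seen. Dusp1-203 measured 14.7, 11.5, 12.4, 17.4 and 17.5 CPM in the controls and 8.74, 7.81, 7.45 and 6.29 CPM with 2-DG. The log2 fold change of Dusp1-203 was -1.03 ± 0.29 (SE), with an unadjusted p of 0.00484 and an adjusted p of 1.00 in edgeR. For Dusp1-204 the values were 4.27, 4.30, 5.19, 5.96 and 5.07 CPM against 2.29, 2.83, 2.93 and 3.38 CPM, with a log2 fold change of -0.83 ± 0.35 (SE).

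The spliced coding transcripts carried most of the Dusp1 counts and overlapped between groups. Dusp1-206 ranged from 65.7 to 245 CPM in the controls and from 61.6 to 212 CPM with 2-DG. Dusp1-202 ranged from 19.2 to 99.7 CPM and from 10.3 to 60.3 CPM. Summed retained-intron transcripts made up 3.43% of Dusp1 in 2-DG replicate 4 and 15.4% in control replicate 2, and 5.81% to 12.6% in the other libraries. The uncertainty of dividing reads among transcripts that share exons is not part of these estimates.

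**Figure D4:**
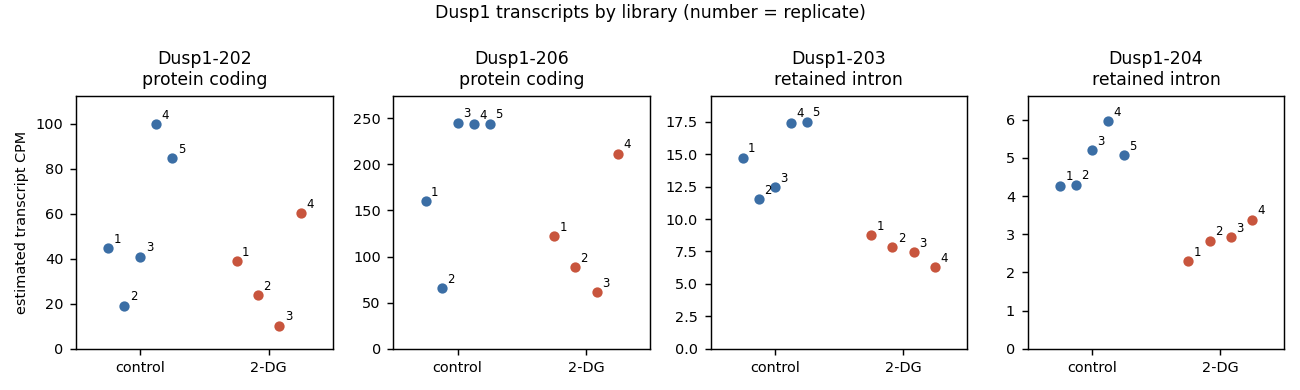
Estimated CPM (y axis, linear from 0) of the 4 tested Dusp1 transcripts in the 5 control (blue) and 4 2-DG (red) libraries, numbered by replicate. The groups overlap for the coding transcripts Dusp1-202 and Dusp1-206 and do not overlap for the retained-intron transcripts Dusp1-203 (11.5 to 17.5 against 6.29 to 8.74 CPM) and Dusp1-204 (4.27 to 5.96 against 2.29 to 3.38 CPM).

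Other genes of the pathway were read from 8 lists with 100 genes, of which 99 were tested. None passed the threshold, 14 were lower and 2 were higher at an unadjusted p under 0.05, where 4.83% and 2.42% of all genes were. Of the 14 lower genes, 7 were among the 9 immediate early genes taken for comparison. The 5 other MAP kinase phosphatases had a median log2 fold change of -0.25 and 0 of 5 at an unadjusted p under 0.05. Dusp7, an ERK phosphatase, was at -0.49 ± 0.26 (SE), Dusp9 at -0.56 ± 0.77 and Dusp16, which prefers JNK, at -0.25 ± 0.27. Of the 6 other Sprouty, Spred and IER genes 5 were tested (all but Spry3), with a median of -0.09 and none at that level. Spry1 was at -0.87 ± 0.46, Ier5 at -0.54 ± 0.66 and Spred2 at -0.09 ± 0.31.

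Among 10 other genes that ERK signaling induces, 6 were fitted lower and 4 higher, with a median of -0.62, and 3 were lower at an unadjusted p under 0.05. Ccnd1, which encodes cyclin D1, measured 88.6, 20.1, 78.9, 99.2 and 80.2 CPM in the controls and 27.1, 44.6, 22.4 and 22.5 CPM with 2-DG. Once more control replicate 2 was the low control and all 2-DG libraries were under the other 4, as they were in 4.47% of all genes. Its log2 fold change was -1.33 ± 0.42 (SE), with an adjusted p of 0.546. Phlda1 was at -1.30 ± 0.44 and Errfi1, a feedback inhibitor of the EGF receptor, at -1.02 ± 0.42. The ETS genes of this list were not on the same side: Etv1 was at 0.54 ± 0.42, Etv5 at 0.08 ± 0.33 and Etv4 at -0.58 ± 0.57, all short of an unadjusted p of 0.05 and named after their values were seen.

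The cascade that carries the signal was fitted higher for 15 of 21 genes, with a median log2 fold change of 0.22. Sos1, the exchange factor that loads RAS with GTP, stood at 67.3, 48.3, 72.4, 59.1 and 48.2 CPM in the controls and 98.7, 114, 92.3 and 71.4 CPM with 2-DG. Only 2-DG replicate 4 was within the control range. Its log2 fold change was 0.67 ± 0.21 (SE), with an unadjusted p of 0.00910 and an adjusted p of 0.546 in edgeR. The scaffold gene Ksr1 and the gene of serum response factor, Srf, were on the other side at -0.62 ± 0.28 and -0.82 ± 0.35, both at an unadjusted p under 0.05. In the JNK and p38 cascades 0 of 11 genes were at that level in either direction, with a median of 0.13 and Map2k7 (0.42 ± 0.25), Mapk8 (0.24 ± 0.25) and Mapk12 (0.36 ± 0.47) at the smallest p-values.

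Upstream, 18 growth factor receptors had a median of -0.04. The insulin receptor gene Insr was higher at an unadjusted p under 0.05, at 0.54 ± 0.23 (SE), beside Igf1r at 0.43 ± 0.27 and Met at -0.98 ± 0.58, which did not reach that level. Every 2-DG value of Insr (166, 131, 131 and 144 CPM) lay above every control value (105, 59.0, 103, 108 and 116 CPM). The share of all genes with that pattern was not counted, and Insr was named for its small p, so nothing is read from it. Of 20 growth factor ligands 14 were fitted lower, with a median of -0.31. Hgf, at -1.34 ± 0.59, and Fgf9, at -0.67 ± 0.30, were lower at an unadjusted p under 0.05, and Nrg1 was at -1.13 ± 0.53.

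The 9 immediate early genes taken for comparison had a median of -1.32, and 7 were lower at an unadjusted p under 0.05. Arc, a synaptic activity gene, was at -2.92 ± 0.68 (SE), Egr3 at -2.11 ± 0.53 and Egr2 at -1.87 ± 0.52, with adjusted p-values of 0.514, 0.524 and 0.524. Npas4, which neuronal calcium entry induces and which is named after its value was seen, was at 0.13 ± 0.61. Whether these lists differ from the 10 genes or from each other was not tested.

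**Figure D5:**
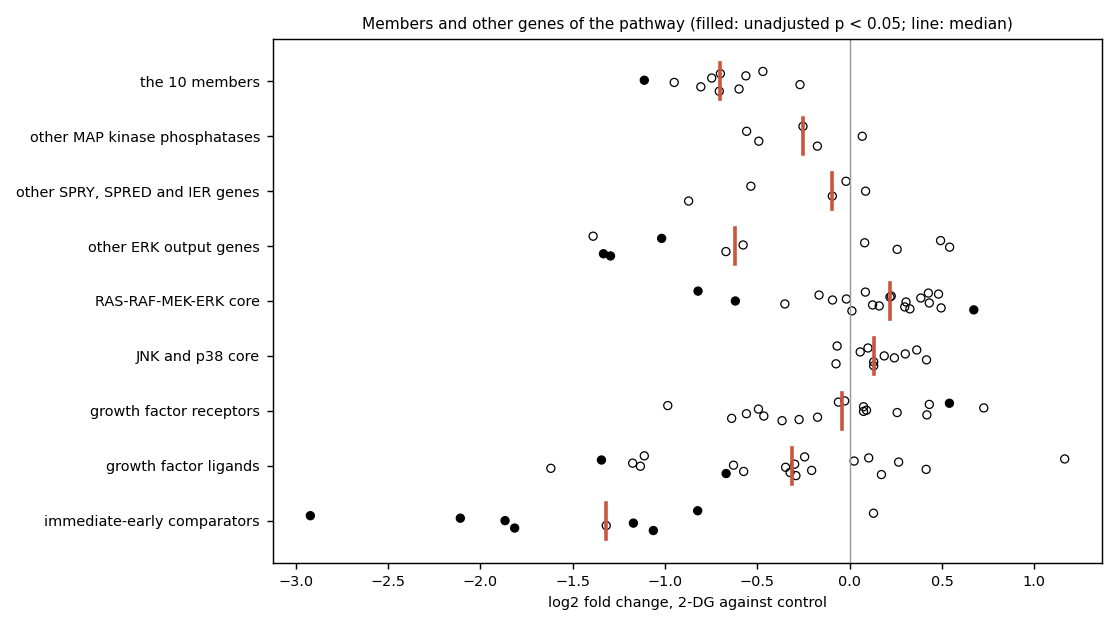
Fitted log2 fold change of 2-DG against control (x axis) for the 10 feedback genes and for the tested genes of 8 pathway lists (y axis). Each circle is a gene, filled at an unadjusted p under 0.05, and the red line is the median of its row. The median is -0.70 for the 10 genes, 0.22 for the core cascade and -1.32 for the immediate early genes, and 1, 3 and 7 circles are filled in the rows of lower values for the 10 genes, the other ERK output genes and the immediate early genes.

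Outside these lists, the genes whose log2 CPM followed the average of the 10 most closely over the 9 libraries were Tmem158 (Pearson r = 0.989), Csrnp1 (0.986), Tnfrsf12a (0.982), Gem (0.982), Zfand5 (0.978) and Cd274 (0.974). The values are a description over 9 libraries that share the group difference and the odd libraries named above, and r stayed between 0.967 and 0.987 without the library least like the rest (control replicate 5) and between 0.965 and 0.988 without control replicate 2. Csrnp1, for example, measured 137, 31.9, 143, 377 and 299 CPM in the controls and 104, 74.8, 41.7 and 99.3 CPM with 2-DG. Its order of libraries within the controls was the order of the average of the 10 genes. All 6 were fitted lower in the treated group, by log2 values from -1.66 to -0.55 and at adjusted p-values from 0.604 to 0.772 in edgeR. They were picked for following an average of genes that were all fitted lower, so this direction came with the choice.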

How the data were processed

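RNA-seq of 9 retinal explant libraries (5 control, 4 2-DG) was analysed, with groups and replicate numbers from the sample titles. The labels' protocol text is the same for all 9 and mentions 2-DG also for the controls, while titles, treatment tags and the series design separate the groups. The library kit kept strand and took 4 ng of total RNA, with 13 PCR cycles and paired reads of 101 bases. The submitters' processing notes name kallisto and GRCm38, without versions. The authors deposited estimated counts per gene (55487) and per transcript (142699), which are not scaled between libraries. The authors also deposited a scaled CPM signal for 12568 genes. Its values for the 10 genes were 0.972 to 1.108 times the CPM computed here, and it was not tested. A deposited comparison table (log2 fold changes, F statistics and p-values) was not used. No column remained without a sample (0 columns).

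Rounded counts passed filterByExpr and TMM scaling, then the quasi-likelihood test of edgeR 4.0.16 (glmQLFit with legacy=TRUE and robust=FALSE, glmQLFTest) in R 4.3.3. The model held the group alone. Benjamini-Hochberg adjustment ran over all features tested, with a threshold of 0.05. The SE is the absolute log2 fold change over the root of F. Values in CPM use the TMM-scaled library size, and 3 counts correspond to 0.0556 to 0.255 CPM. Only the edgeR function was run on simulated counts with known changes. Those counts had less spread between libraries than these data and no odd libraries. The run therefore cannot show how well real changes are found here. Alternatives used limma 3.58.1, DESeq2 1.42.0 and sva 3.50.0. Symbols matched 99.4% of gene IDs, and exon lengths and transcript types came from GENCODE M21 on GRCm38. Whether the counting used strand is not given in the sources used here.

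The members, the pathway and marker lists and the alternatives were chosen with earlier results of these data known, so no list was tested as a set. Genes named are the 10 members, up to 3 genes with the smallest p of each pathway list, and the 6 genes most like the mean of the members. Any other gene named was chosen after its values were seen. A rod marker of the planned list is not reported here and was left out of the rod sum.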

Additional observations from a re-analysis of the deposited data

Results flagged for a closer look

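Within each group, the highest and lowest library of each of the 10 genes, of 4 Dusp1 transcripts and of the 12 marker sums were compared with their neighbours by Dixon's gap ratio, which flags about 1 in 20 groups by chance. Of 52 groups looked at, 5 held a library far from the others. In the 2-DG group, Ier3 was at 463 CPM in replicate 4 against 49.6 to 77.8 CPM in the others, and Spry4 was at 66.6 CPM against 16.7 to 18.1 CPM. Replicate 4 of that group also stood apart for summed rod markers, at 7308 CPM against 3107 to 3713 CPM. Control replicate 2 was set apart by cone markers, at 511 CPM against 37.9 to 65.8 CPM. Cone markers also set 2-DG replicate 3 apart, at 634 CPM against 40.6 to 86.1 CPM.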

How the results depend on the processing

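Every one of the 230 fitted values of the 10 genes under 23 alternatives was negative, and 9 passed the threshold: 5 genes with 2 surrogate variables and 4 genes under limma-voom with quality weights. The median of the 10 ranged from -1.01 to -0.50, while no alternative shifted the median of all genes by more than 0.08. Genes of the 10 at an unadjusted p under 0.05 numbered 2 with library size only, without a filter on low counts, with a filter of 1 CPM in 4 libraries, with DESeq2 and with the mitochondrial percent as a covariate, 3 with upper-quartile scaling, 0 with limma-voom, 9 with 2 surrogate variables and 10 with quality weights, against 1 in the reported fit. Leaving out single libraries gave 0 to 6 of these, 0 past the threshold and 0 to 5 without overlap between groups, and at the same unadjusted p 1 to 8 member transcripts and 9 to 27 pathway genes. The highest of these counts came without control replicate 2. The pathway count was 39 with 2 surrogate variables and 44 with quality weights, against 16. The count over all 21049 genes rose in the same fits. It was 4175 with 2 surrogate variables and 5474 with quality weights, against 1526 in the reported fit. Without single libraries it ran from 921 (without control replicate 4) to 2721 (without 2-DG replicate 4). Whether the 10 genes or the pathway lists rose more than all genes was not tested. Single-gene ranges on leaving out libraries were widest for Ier3, from -1.87 to -0.09, and Spry4, from -1.52 to -0.36. Deviations of same-numbered libraries correlated at r = 0.45, -0.15, 0.10 and 0.21, so a pairing was not shown in every pair, and only replicate 1 of the 2-DG group correlated best with its own number. With the replicate block 0 of the 10 genes were at an unadjusted p under 0.05 (Spry2 in edgeR moved from 0.0357 to 0.119), their adjusted p-values ran from 0.819 to 0.934, their median was -0.50 and 1 of their transcripts was at that level. The cause of these shifts was not tested. With a coefficient of variation of 51.5% between libraries, the spread, and not the depth of at least 203 counts, limits these comparisons.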
